A study of Mus musculus with 56 samples.

Results

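The set described here holds 44 mouse genes whose products bring new proteins into the endoplasmic reticulum, fold them there, watch for unfolded protein and return escaped residents from the Golgi. They were taken from a list by symbol, all 44 were found among the 47069 genes of the deposited table, and each was annotated as protein coding. They fall into 4 roles, with 19 translocation genes, 16 folding genes, 7 stress genes and 2 retrieval receptors. The rule used no measured value: it asked for the level of each gene once the transcripts of the 3 main hormones had been taken out, and for its relation to the hormone share of the cell.

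The libraries came from pituitaries of randomly cycling female C57BL/6 mice, given as 10 to 12 weeks old in the growth protocol (another label of the same samples reads 3 weeks). Cells of 5 pituitaries made up a sample, were cultured untreated for 4 days, trypsinized, resuspended in the stabilizing buffer RNA-Best, passed through a filter, captured singly on a Fluidigm C1 chip and made into full-length SMART-Seq libraries. All 56 libraries carry the same labels apart from the well, so that there was 1 group, no control group and no replicate culture. The cells are therefore parts of 1 sample, no test was run, and every correlation is a description over cells that share a culture. The labels do not give the number of chips or sequencing runs. No molecular identifiers were counted, so counts of 1 cell are not independent molecules.

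Most secreted and membrane proteins enter the endoplasmic reticulum while they are being made. The signal recognition particle takes the ribosome to its receptor, the chain passes through the Sec61 channel with the help of the translocon-associated protein complex, and signal peptidase removes the leader. Inside, the Hsp70 chaperone BiP (Hspa5), lectin chaperones and disulfide isomerases fold the chain, and the sensors IRE1 (Ern1), ATF6 and PERK (Eif2ak3) raise chaperone transcription through XBP1, ATF6 and ATF4 when unfolded protein builds up. Pituitary hormone cells secrete large amounts of protein, and prolactin, growth hormone and the precursor proopiomelanocortin all take this route.

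The 46 wells with 100000 or more gene counts were used, with 111195 to 12563300 gene counts each (median 1192620). The summed share of Prl, Gh and Pomc, called the hormone share below, ran from 0.759% of gene counts in well F4 to 81.0% in well C2, with a median of 29.2%. Prl was the leading hormone in 37 cells, Pomc in 5 and Gh in 4. Since a transcript that takes most of a library pushes all others down, levels are given as hormone-free CPM, the counts of a gene per 1000000 gene counts left after those 3 genes were removed. Pou1f1, the factor that specifies the Prl and Gh lineages, had counts in 45 of the 46 cells (median 26.0 CPM). Of the other markers listed with it, Ghrhr had counts in 4 cells and Drd2 in 1. A count of Pou1f1 alone does not assign a cell to these lineages. Endothelial markers (5 genes) summed to 8855 CPM in well H4 against a median of 0.691, hemoglobin and other erythroid markers (5 genes) to 146749 CPM in well F11 against a median of 59.3, and gonadotrope markers (5 genes) to 122456 CPM in well E3. Macrophage markers summed to at most 449 CPM, folliculostellate markers to at most 418 CPM with Sox2 at 0 in every cell, and fibroblast markers to at most 512 CPM with Col1a1 and Lum at 0 in every cell. Wells C10 and C11 were closer to each other (Pearson r = 0.95 over log2 values) than any other pair of wells, the next being C11 and F12 with r = 0.81.

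The 44 genes together made up 1.65% of the hormone-free counts in the median cell. Their sum ran from 3648 hormone-free CPM in well G2 through a median of 16474 to 100231 in well A3, with 71298 in well A2 as the next highest (SD 16933, n = 46). Translocation genes summed to a median of 6242 hormone-free CPM (1925 in well D2 to 69140 in well A2) and folding genes to a median of 6103 (625 in well C7 to 35229 in well G7). In the median cell these roles held like parts of the set, 39.7% and 39.5%. The stress genes summed to a median of 2114 (64.6 in well H9 to 81411 in well A3) and the 2 retrieval receptors to a median of 212 (3.28 in well H4 to 907 in well F4). The spread over cells, as SD of log2 values, was 0.93 for translocation, 1.22 for folding, 1.87 for stress and 2.11 for retrieval.

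**Figure D1:**
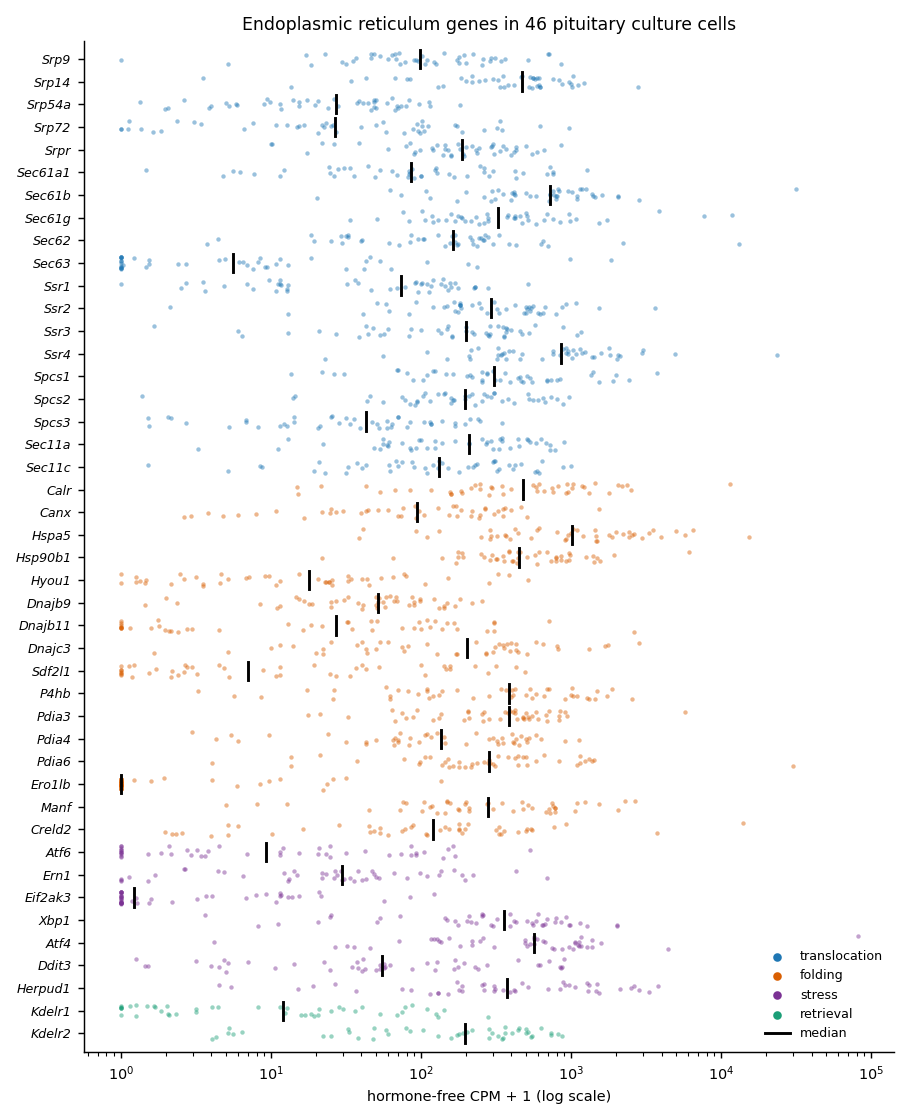
Level of each of the 44 genes (rows, grouped and coloured by role) in each of 46 cells (points) as hormone-free CPM plus 1 on a log axis, with black bars at the medians. Values are not scaled to gene length. On this axis Hspa5 has the highest median (1009 hormone-free CPM), but per exon length Sec61b, Srp14 and Ssr4 stand above it. Ero1lb sits at 0 in most cells. Single points far to the right mark cells in which 1 gene takes most of the set, such as Atf4 in well A3 at 80939.

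Counts were found in every cell for 32 of the 44 genes, 15 of the translocation genes, 12 of the folding genes, 4 of the stress genes and 1 of the receptors. When each cell was thinned to 20000 hormone-free counts, only Hspa5 kept a count in all 46 cells, and Hsp90b1 and Sec61b did in 45. The sensors were the sparse end: Atf6 had counts in 35 cells, Ern1 in 43 and Eif2ak3 in 24, and the oxidase gene Ero1lb, which reloads disulfide isomerases with oxidizing power, had counts in 13. After thinning these 4 had counts in 16, 25, 5 and 3 cells. A cell without a count at these depths is not shown to lack the transcript.

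Levels of different genes can only be set side by side per length. As counts per kilobase of exon, scaled to 1000000 after the hormones were removed, the highest medians were those of Sec61b (999, the small beta subunit of the channel), Srp14 (717, an RNA-binding protein of the signal recognition particle), Ssr4 (497, the delta subunit of the translocon-associated protein complex), Hspa5 (460) and Atf4 (458). An alternative chosen after seeing the data used the length of each member's principal transcript in place of all annotated exons. The scaling total still came from exon lengths, so its values compare members with each other and not with the exon scale. There Sec61b stood at 2252, Ssr4 at 2011, Srp14 at 1073, Sec61g at 826 and Spcs1 at 821. The large channel subunit Sec61a1 stood at 22.9 on the first scale and 48.5 on the second, well below its small partners Sec61b and Sec61g on both. The signal recognition particle was uneven in the same way, with Srp14 at 717 against 28.7 for Srp9, 8.89 for Srp54a and 6.21 for Srp72 on the exon scale, and 1073 against 116, 15.7 and 9.80 on the transcript scale. At the low end of the exon scale were Eif2ak3 (0.063), Sec63 (0.848), Atf6 (1.18), Hyou1 (3.49) and Ern1 (5.94), while Ero1lb had a median of 0. Over cells the log2 SD of a single gene was 1.36 (Hsp90b1) to 3.27 (Dnajb11), so neighbours in these orders do not differ beyond their spread.

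Not every count is exclusive to its gene. For 14 of the 44 genes more than 10% of the cells with a count held a value that was not whole, as arises where a read is divided among genes. The share of such cells was 95.7% for Sec61g, 87.0% for Sec61b, 84.8% for Srp54a and 71.1% for Srp9, and it was 0 for Hspa5, Xbp1 and Atf4. The annotation also has other genes overlapping Manf, Ddit3, Spcs1, Kdelr1 and others, and strand was not stated for these counts, so reads of overlapping genes cannot be told apart. With only the 30 genes that held such values in at most 10% of their cells (whole being within 1e-09 of a whole number), the rho of the sum with hormone share, given below as 0.32, was 0.20.

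In 4 cells a single gene held more than 50% of the summed set. Atf4 was 80.8% of it in well A3 (8231 counts), Pdia6 was 86.0% in well A10 (2858 counts), Sec61g was 59.2% in well A9 and Ssr4 was 52.4% in well H3. Wells A3, A9 and A10 were shallow, with 183945, 218643 and 127487 gene counts, and their spike-in shares were 63.0%, 49.1% and 58.0% against a median of 6.08%. Single-gene peaks of this kind also set the highest sum of the translocation genes, since well A2 held Sec61b at 31243, Ssr4 at 23353 and Sec62 at 13025 hormone-free CPM, against medians of 721, 859 and 163.

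Other cells moved in many genes at once. Well G7, a Prl-led cell with 4485890 gene counts, had the highest levels of Hspa5 (15283 hormone-free CPM), Hsp90b1 (6101) and Pdia4 (1125). It was also the second highest for Manf (2293), Creld2 (3741), Dnajc3 (1767), Herpud1 (3274) and Ddit3 (865), the gene of the stress factor CHOP. Not all members were high there: Kdelr2 stood at 4.25 against a median of 196, and Srp54a at 1.06 against 26.1. The translocation sum of well G7 was 7631 against a median of 6242. Its gonadotrope markers summed to 12528 CPM against a median of 95.9. At the other end, well H4 held the lowest value of 12 of the 44 genes, among them Srp14 (2.53), Spcs2 (0.379), P4hb (2.27), Pdia6 (3.03), Manf (4.04) and Kdelr2 (3.03). In that well, where the endothelial markers stood at their highest, Sec63 reached 985 hormone-free CPM against a median of 4.56 and Ssr4 stood at 2128 against a median of 859. Well H9, with 10664300 gene counts and 57.5% hormone, held the lowest value of 6 genes, including Xbp1 (2.65), Herpud1 (3.53), Dnajb9 (0.441) and Pdia4 (1.98), although Hspa5 stood at 1980 and Manf at 1530 there. Its summed folliculostellate markers were the highest of all cells (418 CPM, of which Aldoc made 336). The part of these marker levels in the pattern was not tested.

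The question set by the rule was how this machinery stands in cells that devote more of their transcripts to hormones. The summed set had a Spearman rho of 0.32 with hormone share over 46 cells (Pearson r = 0.34 on the log2 scale). The same coefficient was 0.21 for the translocation sum, 0.22 for the folding sum, 0.035 for the stress sum, −0.059 for the retrieval sum and 0.13 for the ratio of folding to translocation. A limit of size, rho of 0.3 or more either way, was used to mark relations and is not a test. By that limit only the summed set stood out, and neither translocation nor folding did alone. With the hormones left in the denominator the summed set had rho −0.12, so the sign depends on taking them out. The value is close to the limit and moved below it under several other summaries: it was 0.23 for the mean of log2 levels, 0.19 for the median rank of the members (chosen after seeing the data) and 0.29 without the 4 cells in which 1 gene held most of the sum.

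The pooled value did not hold in both sets of plate columns. Wells of columns 1 to 3 and 7 to 9 (29 cells, hormone share 9.38% to 81.0%) gave rho 0.60 for the summed set, 0.50 for folding, 0.37 for translocation and 0.10 for stress. Wells of columns 4 to 6 and 10 to 12 (17 cells, hormone share 0.759% to 51.0%) gave −0.051, 0.088, −0.049 and −0.11. The labels name no batch, the column sets were formed after earlier work had seen cells cluster by them, and the difference between the sets was not tested. Medians also differed between the column sets, with folding at 4830 hormone-free CPM in the first and 8009 in the second, and the retrieval receptors at 137 and 428, while the translocation sums were alike (6229 and 6289).

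**Figure D2:**
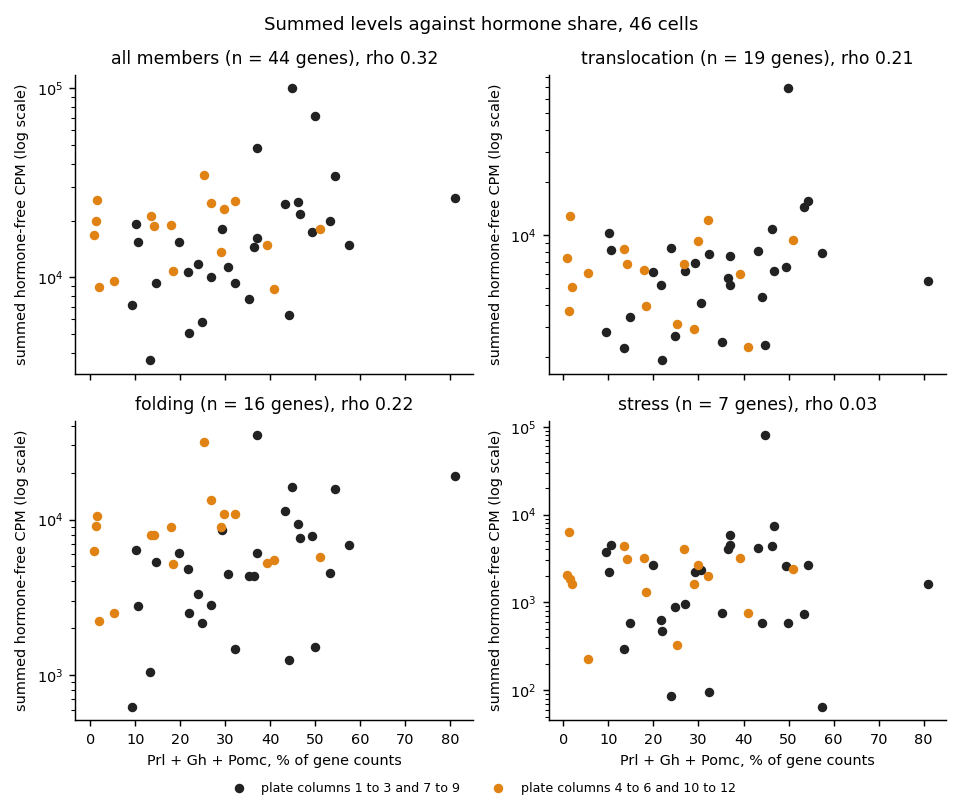
Summed hormone-free CPM (log axes) of all members and of the translocation, folding and stress genes against the share of Prl, Gh and Pomc in gene counts, 1 point a cell, black for plate columns 1 to 3 and 7 to 9 (29 cells) and orange for columns 4 to 6 and 10 to 12 (17 cells). The upward drift of the summed set (rho 0.32) is seen among the black points (rho 0.60) and not among the orange ones (rho −0.051).

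Of the 44 genes, 42 passed a filter of a mean of 10 hormone-free CPM and a count in at least 50% of cells (Ero1lb and Eif2ak3 did not). For 4 of the 42 (9.52%) rho with hormone share was 0.3 or more, and for 0 it was −0.3 or less. Over all 6426 genes that passed, 6.41% reached 0.3 and 2.37% reached −0.3, so the share of members past the limit lies near the background. The median rho of the members was 0.12 beside 0.036 for all genes, whose middle 50% ran from −0.086 to 0.15. The 4 genes were Manf, Dnajb9, Hyou1 and Ern1, 3 folding genes and 1 stress sensor.

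Manf encodes a small protein resident in the endoplasmic reticulum that can be secreted and binds BiP. Its level ran from 4.04 hormone-free CPM in well H4 through a median of 276 to 2654 in well A7, and its rho was 0.44. Of the 6 cells under 10% hormone, 5 lay below that median, and well H11 stood at 780. Within the column sets Manf had rho 0.56 in the first and 0.34 in the second. Creld2, another resident of the lumen that is released under stress, ran from 0.979 (well B11) through 120 to 13895 (well A3) and had rho 0.28, with 0.34 and 0.40 within the column sets. Summed, this pair had rho 0.40 with hormone share and 0.53 with Prl share, the highest of any subgroup of the set.

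Dnajb9 encodes ERdj4, a J-protein partner of BiP that also restrains IRE1. It ran from 0.441 hormone-free CPM (well H9) through a median of 50.9 to 253 (well D7), with rho 0.41 over all cells, 0.45 in the first column set and 0.19 in the second. The other J-proteins of the list had rho 0.23 (Dnajb11) and 0.10 (Dnajc3), and Sdf2l1, which works with them, had −0.054. Hyou1, the large Hsp70 relative GRP170 that exchanges nucleotide on BiP, ran from 0 in 2 cells through 17.0 to 517 (well A7), with rho 0.35 over all cells, 0.20 in the first column set and 0.50 in the second. Ern1, the sensor that splices Xbp1 messenger RNA, ran from 0 in 3 cells through 28.5 to 694 (well D7), with rho 0.32, 0.39 and 0.093. After thinning to equal depth, rho was 0.30 for Manf, 0.26 for Dnajb9, 0.19 for Hyou1 and 0.28 for Ern1, so that only Manf of the 4 stayed past the limit, while the translocation genes Sec61a1 (0.35) and Spcs2 (0.33) passed it. In the 31 cells with 500000 gene counts or more, Dnajb9 (0.279) fell short of the limit, Manf (0.54), Ern1 (0.45) and Hyou1 (0.35) stayed past it, and Sec61a1, Sec61b, Spcs3 and Dnajb11 joined them. Without wells F6 and H4, the 2 cells with at least 4 endothelial markers at 100 CPM or more, Manf (0.41) and Dnajb9 (0.38) still reached 0.3, and Hyou1 (0.297) and Ern1 (0.286) did not. Over all 56 wells Dnajb9 alone reached it (0.37), with Manf at 0.27. The share of all genes past the limit is not given for thinned counts or for these choices of cells.

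The main chaperones showed little relation. Hspa5 ran from 37.7 hormone-free CPM (well A1) through a median of 1009 to 15283 (well G7) with rho 0.15, and Hsp90b1, the lumenal Hsp90 GRP94, ran from 20.9 through 448 to 6101 with rho 0.16. Calreticulin (Calr) and calnexin (Canx), the lectin chaperones, had rho 0.14 and 0.12. Among the disulfide isomerases rho was 0.24 for Pdia6, 0.12 for Pdia4, 0.099 for Pdia3 and 0.00068 for P4hb. Within the first and second column sets rho was 0.43 and 0.12 for Hspa5, and 0.31 and 0.044 for Hsp90b1. It was 0.42 and −0.096 for Calr, and 0.19 and 0.52 for Canx. For Pdia6 it was 0.36 and 0.15, for Pdia4 0.21 and 0.039, for Pdia3 0.50 and −0.37, and for P4hb 0.20 and −0.29.

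No translocation gene passed the limit over the 46 cells at full depth. The highest were Spcs2 (rho 0.25, a noncatalytic subunit of signal peptidase), Sec61a1 (0.25), Sec61b (0.24) and Spcs3 (0.22). All 5 signal peptidase genes had rho above 0, with Spcs1 at 0.21, the catalytic subunits Sec11c at 0.15 and Sec11a at 0.12. The 4 genes of the translocon-associated protein complex went different ways, Ssr4 at 0.14, Ssr1 at −0.020, Ssr2 at −0.027 and Ssr3 at −0.22, the lowest of the set. Sec63, a partner of the channel that recruits BiP, was at −0.18. The targeting genes lay between 0.039 (Srp72) and 0.20 (Srpr, the receptor's alpha subunit).

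The other stress genes that passed the filter had rho below 0.1 in size. Xbp1, whose product drives chaperone and translocation genes once its messenger has been spliced, ran from 2.65 hormone-free CPM (well H9) through a median of 354 to 2015 (well G1) with rho 0.022. Gene counts do not separate its spliced from its unspliced form. Atf4, the factor made when PERK slows translation, ran from 3.14 (well D10) through 566 to 80939 (well A3), with 4428 in well A1 as the next highest, and had rho 0.065. Herpud1, which serves the removal of misfolded protein, had rho 0.092, Atf6 0.0033 and Ddit3 −0.021. Of the retrieval receptors, Kdelr1 had rho 0.25 and Kdelr2 −0.077, with −0.52 for Kdelr2 in the second column set.

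**Figure D3:**
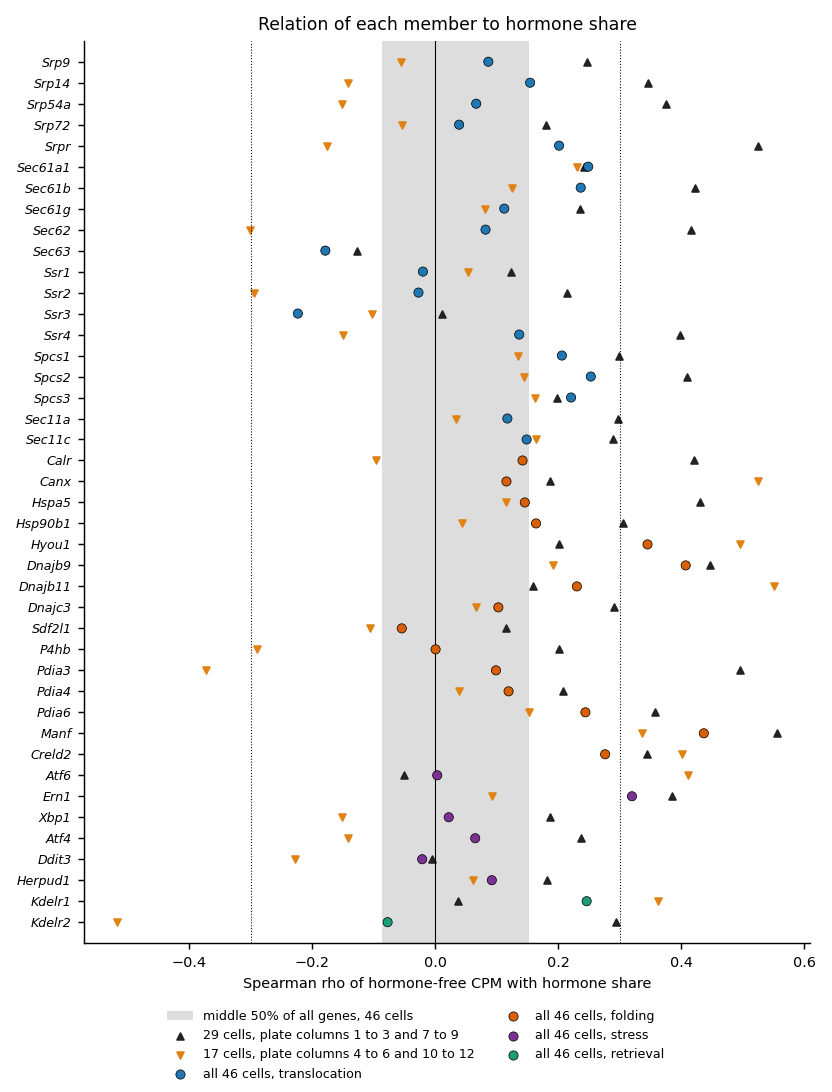
Spearman rho of hormone-free CPM with hormone share for the 42 members that passed the filter, over all 46 cells (circles coloured by role) and within plate columns 1 to 3 and 7 to 9 (black) and 4 to 6 and 10 to 12 (orange), with the middle 50% of all genes in grey and the limits of 0.3 dotted. Manf (0.44), Dnajb9 (0.41), Hyou1 (0.35) and Ern1 (0.32) lie beyond the right limit over all cells, and for most members the black mark lies to the right of the orange one.

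Within the first column set 16 of the 42 members (38.1%) reached rho 0.3 and 0 reached −0.3, beside 12.6% and 3.41% of all genes that passed the filter there. They were Srp14, Srp54a, Srpr, Sec61b, Sec62, Ssr4 and Spcs2 of translocation, Calr, Hspa5, Hsp90b1, Dnajb9, Pdia3, Pdia6, Manf and Creld2 of folding, and Ern1. Within the second set 7 members (16.7%) reached 0.3 and 3 (7.14%) reached −0.3, beside 17.4% and 6.66% of all genes, which is the background share. Only Manf and Creld2 were past 0.3 in both sets, while Sec62 and Pdia3 were past 0.3 in the first and past −0.3 in the second. The share of all genes past the limit in both sets is not given here. These overlaps are therefore not a result about the members. Within the 37 cells led by Prl, 17 members (40.5%) reached 0.3 and 0 reached −0.3, beside 13.4% and 1.55% of all genes. The summed set had rho 0.49 there. These cells include well H4, with Prl at 1.44% of gene counts and endothelial markers at 8855 CPM. They also include well E3, with gonadotrope markers at 122456 CPM.

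**Figure D4:**
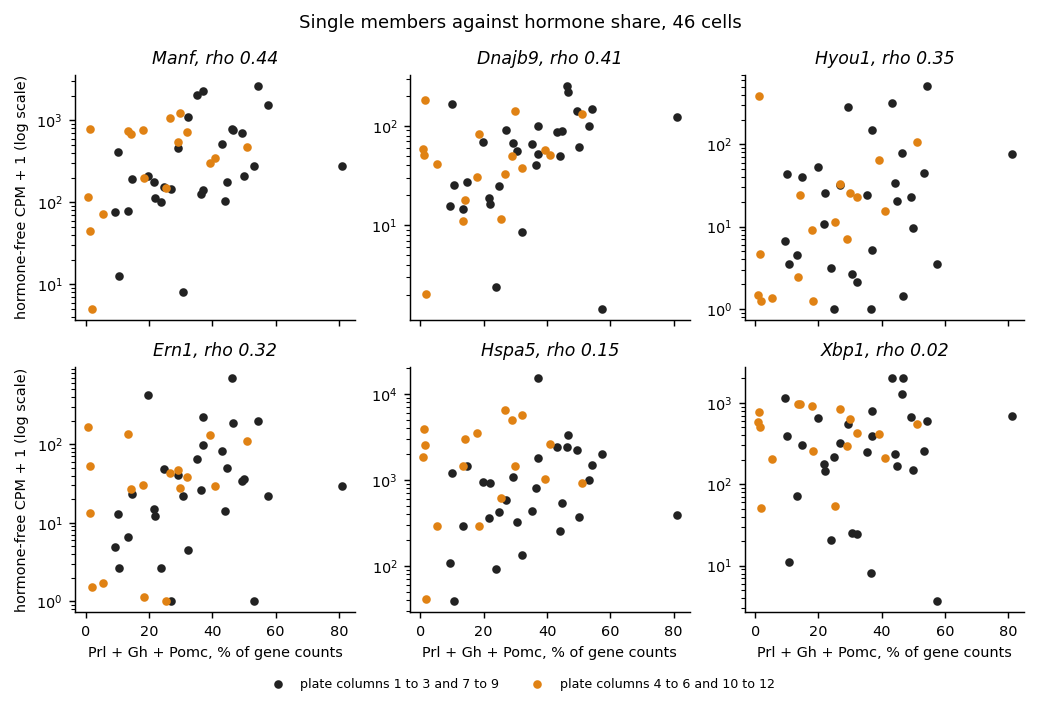
Hormone-free CPM plus 1 (log axes) of Manf, Dnajb9, Hyou1, Ern1, Hspa5 and Xbp1 against hormone share in 46 cells, black for plate columns 1 to 3 and 7 to 9 and orange for columns 4 to 6 and 10 to 12. Manf (rho 0.44) and Dnajb9 (0.41) drift upward with wide scatter, while Hspa5 (0.15) and Xbp1 (0.022) scatter widely with little drift over all 46 cells.

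The 3 hormones did not give the same picture. With Prl share alone the summed set had rho 0.43, translocation 0.32, folding 0.35 and stress 0.067, and 6 members (14.3%) reached 0.3 beside 7.35% of all genes: Manf (0.57), Hyou1 (0.47), Ern1 (0.39), Dnajb9 (0.35), Dnajb11 (0.31) and Creld2 (0.31). None reached −0.3, beside 1.24% of all genes. With Gh share alone rho was −0.20 for the summed set and −0.36 for stress. There 9 members (21.4%) reached −0.3, namely Srp9, Srpr, Ssr1, Spcs1, Spcs2, Sec11a, Calr, P4hb and Atf4 (−0.43), beside 14.9% of all genes, and 0 reached 0.3, beside 3.73%. With Pomc share alone Ssr3 (−0.36) and Hspa5 (−0.35) reached −0.3 (4.76% of members, beside 6.08% of all genes) and none reached 0.3 (4.06% of all genes). These shares are parts of the same libraries and are not independent of each other. In the 5 cells led by Pomc, Hspa5 lay between 288 and 1190 hormone-free CPM (median 321), inside its range in the 37 cells led by Prl (37.7 to 15283, median 1019).

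Depth and spike-in share moved with the members too. Across members the median rho with gene counts was 0.20, from −0.18 (Kdelr1) to 0.45 (Srp14), beside 0.11 over all genes. With the share of ERCC spike-ins it was −0.32, from −0.53 (P4hb) to 0.060 (Creld2), beside −0.20 over all genes. Hormone share itself had rho −0.079 with gene counts and 0.011 with spike-in share. With the hormone-free counts, over which levels are taken, it had rho −0.28, and −0.15 with hormone-free counts per spike-in count. With gene counts and spike-in share held fixed on ranks, rho with hormone share was 0.45 for Manf, 0.43 for Dnajb9, 0.34 for Hyou1 and 0.34 for Ern1. Hormone-free counts were not held fixed.

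The members went together from cell to cell more than genes in general did. Over the 861 pairs of the 42 members the median rho was 0.36, and 22.2% of pairs had rho of 0.5 or more, against a median of 0.12 and 2.01% over all pairs of the 6426 genes. Among genes with a mean of 100 hormone-free CPM or more, the figures were 0.38 and 27.0% for 32 members and 0.18 and 5.14% for all 1832 genes. With gene counts and spike-in share held fixed, the median was 0.32 for members and 0.089 for all genes. Within the column sets the members' median was 0.37 and 0.28. Pairs inside a role (0.39 for translocation, 0.38 for folding, 0.39 for stress) were little above pairs between roles (0.34). No test of the difference was made, since pairs share genes and cells.

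The strongest pairs crossed roles. P4hb, a disulfide isomerase, and Kdelr2, the receptor that returns such KDEL-tailed residents from the Golgi, had rho 0.82 (0.85 and 0.48 within the column sets). Sec11c of signal peptidase and Hsp90b1 had 0.80 (0.79 and 0.79), and Srp54a and Kdelr2 had 0.81 (0.82 and 0.49). Within roles, Spcs2 and Sec11a of signal peptidase had rho 0.76, P4hb and Pdia6 0.71, and Calr and Pdia3, which act on the same glycoproteins, 0.71. In the stress role, Xbp1 with Herpud1 stood at 0.68 and Ern1 with Xbp1 at 0.59. P4hb had the highest median rho with the other members (0.53), followed by Srp72 (0.50) and Sec11a (0.50), while Sec63 (0.057) and Kdelr1 (−0.051) lay near 0. The other receptor, Kdelr2, had 0.43.

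**Figure D5:**
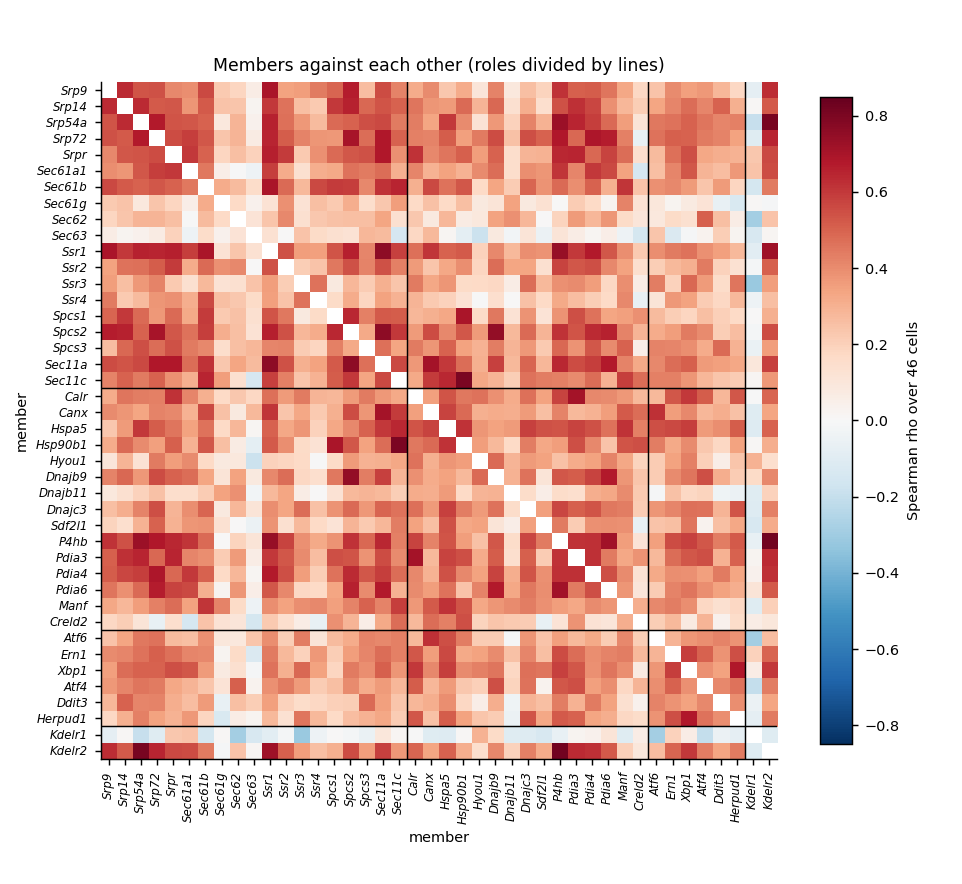
Spearman rho over 46 cells between each pair of the 42 members that passed the filter, red above 0 and blue below, in the same order on both axes and with lines between the roles. Most of the map is red (median rho 0.36), with pale bands at Sec61g, Sec63, Dnajb11, Creld2 and Kdelr1.

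Because the members went together, their promoters were read for the elements known to answer unfolded protein. RefSeq promoter windows of GRCm38.p6, from 250 bases before to 50 after the start of a gene, were given for 36 of the 44 genes (not for Sec61a1, Ssr2, Spcs3, Sec11c, Hyou1, Manf, Atf6 or Kdelr2). Both strands were searched for the endoplasmic reticulum stress element ERSE (CCAAT, 9 bases, CCACG), for ERSE-II (ATTGG, 1 base, CCACG), for the unfolded protein response element UPRE (TGACGTGG) and for the C/EBP-ATF composite site (TGATG, 1 base, AA). ERSE was present in 8 of the 36 windows (22.2%), those of Hspa5, Hsp90b1, Calr, Canx, Dnajc3, Pdia6, Creld2 and Ero1lb, and in 0.119% of all 32851 windows of the table. ERSE-II was present in those of Herpud1 and Dnajb11 (5.56%, against 0.0365% of all windows), the composite site in those of Herpud1 and Kdelr1 (5.56%, against 3.97%), and UPRE in 0 of the 36, against 0.676%. None of the 15 translocation windows held ERSE or ERSE-II. The elements and many of the genes were both picked for a known link to unfolded protein. The shares above therefore describe that choice and are not a test. The matches upstream of the start are shown with 10 bases on either side, on the strand of the gene, with the matched letters in capitals. A match read as CGTGG and ATTGG is ERSE on the other strand.
Hspa5, chr2:34772015-34772053, plus strand: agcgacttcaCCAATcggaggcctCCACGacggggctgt
Hsp90b1, chr10:86705628-86705666, minus strand: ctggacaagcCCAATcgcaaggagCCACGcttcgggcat
Hsp90b1, chr10:86705523-86705561, minus strand: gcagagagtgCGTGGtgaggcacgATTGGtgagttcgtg
Calr, chr8:84847065-84847103, minus strand: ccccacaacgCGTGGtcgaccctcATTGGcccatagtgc
Canx, chr11:50325790-50325828, minus strand: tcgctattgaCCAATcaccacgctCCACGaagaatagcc
Dnajc3, chr14:118937817-118937855, plus strand: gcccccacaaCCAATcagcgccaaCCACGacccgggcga
Pdia6, chr12:17266481-17266519, plus strand: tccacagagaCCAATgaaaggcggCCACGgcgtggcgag
Creld2, chr15:88819510-88819548, plus strand: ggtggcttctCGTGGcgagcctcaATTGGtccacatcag
Ero1lb, chr13:12565672-12565710, plus strand: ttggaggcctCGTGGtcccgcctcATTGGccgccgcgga
Herpud1 (ERSE-II), chr8:94386367-94386397, plus strand: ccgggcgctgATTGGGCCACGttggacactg
Herpud1 (composite site), chr8:94386307-94386334, plus strand: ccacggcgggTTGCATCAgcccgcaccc
Kdelr1 (composite site), chr7:45872681-45872708, plus strand: ctaaagacccTTCCATCAgttagtaggc

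Genes with and without the element had overlapping values in the measures above, and the difference was not tested. The 9 genes with ERSE or ERSE-II that passed the filter had rho with hormone share from 0.092 (Herpud1) to 0.28 (Creld2), with a median of 0.15. The 25 other members with a window ran from −0.22 (Ssr3) to 0.41 (Dnajb9), with a median of 0.099. Pairs among the first had a median rho of 0.36 with each other, and pairs among the second 0.36. A match describes letters in a window and is not evidence of binding.

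The rest of the pathway was read from a list of 55 further genes of targeting, glycosylation, folding, degradation, stress and traffic. All 55 were measured and 49 passed the filter, with rho from −0.19 to 0.53 and a median of 0.10. For 5 of the 49 (10.2%, beside the background of 6.41%) rho was 0.3 or more, and for none −0.3 or less. The 3 highest were Fkbp11 (0.53, a prolyl isomerase of secretory cells), Dnajc10 (0.40, a J-protein that reduces disulfides) and Derl3 (0.40, a derlin of the degradation pathway), followed by Sec22b (0.37) and Ppib (0.35). The 3 lowest of those that passed were Sil1 (−0.19), Ganab (−0.17) and Derl1 (−0.12). Per exon length the highest medians of this list were Krtcap2 (1250), Dad1 (894), Tmem258 (750), Ddost (311) and Ostc (303), all 5 of them subunits of the oligosaccharyltransferase that attaches sugar chains.

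For comparison, summed cytosolic chaperones (16 genes) had rho −0.24 with hormone share, proteasome subunits (28 genes) 0.086, granins (7 genes) 0.23 and cytosolic ribosomal proteins (83 genes) 0.36. With the summed set itself their rho was 0.088, 0.20, 0.43 and 0.055. Expressed per ribosomal protein count, the summed set had rho −0.0033 with hormone share. Erythroid markers had rho −0.37 and macrophage markers 0.25 with the summed set, and their part in it was not tested. The macrophage sum rested mostly on Cd68, with counts in 41 cells. Tyrobp came next with 17 cells, and Csf1r had counts in 1.

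Outside both lists, the 10 genes whose level most resembled the summed set over the 46 cells were Serp1 (rho 0.61), a gene with no symbol in the annotation used (0.60), Prorsd1 (0.57), Eny2 (0.57), Selenok (0.56), H13 (0.56), Gm5805 (0.54), Gtf2b (0.54), Jmjd6 (0.53) and Chgb (0.53). Serp1 encodes RAMP4, a small protein that sits at the channel, H13 encodes signal peptide peptidase, which clears cut leaders, and Selenok encodes a selenoprotein of the same membrane. Chgb encodes the granule protein chromogranin B. The coefficient of Serp1 with the summed set was 0.68 in the first column set and 0.44 in the second, and that with hormone share was 0.33.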

How the data were processed

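Reads of 56 single-cell SMART-Seq libraries were aligned with STAR 2.5.1b to mm10 and counted per gene with featureCounts 1.5.0-p1, per the submitters' processing notes; the annotation release, strand and handling of shared reads are not given in the sources used here. The estimated counts in the table the authors deposited were not normalized and are not always whole. ERCC spike-ins (92 rows) were kept out of gene counts. Gene symbols, positions and exon lengths came from GENCODE M21, which named 46574 of the 47069 identifiers. Wells with 100000 or more gene counts were used (46 of 56). Empty or double captures were not screened.

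Hormone-free CPM, Spearman rho, thinning (seeded draws without replacement after rounding) and partial rho on ranks were computed with Python 3.11.15, numpy 2.4.6, pandas 2.3.3 and scipy 1.17.1, and figures with matplotlib 3.10.9; the scan was tested on simulated data. No p-value is given, since the labels give 1 sample. All 44 members are named, the 5 highest in level and the 3 highest and 3 lowest in rho of the pathway list (with the other genes past the limit, chosen after their values were seen), the 10 nearest genes, and wells with extreme values. Members, lists, motifs and alternatives were chosen with earlier results of these data known. Alternatives changed the denominator, cells, depth, summary, hormone and column set. Promoter sequences are RefSeq's, GRCm38.p6.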

Additional observations from a re-analysis of the deposited data

Results flagged for a closer look

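The wells left out for holding fewer than 100000 gene counts still carried members: all 10 held more than 3 counts of the set, the limit that a count of 0 allows. They ranged from 9 counts over 6 members in well B6, with 357 gene counts in all, to 1504 counts over 41 members in well D12, with 96289 gene counts. Their summed level lay between 6423 (well A6) and 30119 (well B6) hormone-free CPM, inside the range of the 46 cells used. These wells enter the text above only where all 56 wells are named.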

How the results depend on the processing

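With the hormones kept in CPM, rho with hormone share was −0.12 for the summed set, −0.22 for translocation, −0.092 for folding and −0.21 for stress, with 0 members at 0.3 or more and 1 at −0.3 or less. Per ribosomal protein count the first 3 were −0.0033, −0.15 and −0.059. In plate columns 1 to 3 and 7 to 9 the summed set had 0.60 and folding 0.50, with 16 members at 0.3 or more, and in columns 4 to 6 and 10 to 12 the summed set had −0.051 and translocation −0.049, with 7 members at 0.3 or more and 3 at −0.3 or less. With Gh share alone the summed set, translocation, folding and stress had −0.20, −0.26, −0.15 and −0.36, and with Pomc share alone −0.15, −0.20, −0.22 and −0.14, the ratio of folding to translocation being −0.076. In the 37 cells led by Prl the summed set had 0.49 and translocation 0.37, with 17 members at 0.3 or more. Over all 56 cells the summed set had 0.17, with 1 member at 0.3 or more and 5 genes with a count in every cell. Members at 0.3 or more were 7 with 500000 gene counts or more (Dnajb9 lost, 3 translocation genes and Dnajb11 gained) and 2 without wells F6 and H4. For these settings, for all 56 cells and with the hormones kept, the share of all genes past the limit is not given. Such counts are therefore not a result about the members. Genes with a count in every cell fell to 1 after thinning. The causes were not tested. The other alternatives included thinning, partial rho, leaving out C11 and a mean of logs. In them these results moved by less than the spread used (1 SD over cells, 0.15 for rho). Even so, the rho of the summed set was 0.3 or more in 12 of its 23 alternatives and above 0 in 18. For the median level of the set the spread (16933) was larger than the median itself (16474), so no fall could count as moved. That level ran from 9507 with the hormones kept in CPM to 18650 in plate columns 4 to 6 and 10 to 12. Alternatives added after seeing the data, leaving out the 4 cells dominated by 1 gene and using the median rank of members, moved none. No paired analysis was possible because the labels give 1 group. Low depth limits the sparse genes: 1 count in the median cell is more than 1 hormone-free CPM.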
